A study of Mus musculus with 12 samples.

Results

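The 9 genes of the interleukin-1 (IL-1) family and its receptors followed here through 12 mouse libraries were Il1a, Il1b, Il1rn, Il1r1, Il1r2, Il1rap, Il1rl1, Il18 and Il33. They were taken by name from a table of 57180 genes, and all 9 of 9 names matched a row. The libraries fell into 4 groups of 3. Liver was sampled from C57 mice that received vehicle or CCl4 (carbon tetrachloride, a solvent toxic to the liver), and was sequenced as bulk RNA. Dorsal skin CX3CR1+ cells came from Cx3cr1-creER:Ai9 mice given CCl4 or vehicle and were sequenced by smart-seq, a method for small RNA inputs. In that strain an inducible Cre recombinase under the fractalkine receptor gene switches on a red reporter, so a cell is marked by past as well as present Cx3cr1 expression, and all skin mice, the controls included, were of this strain. The study's title names midkine and touch-evoked itch along an axis from liver to skin. The sources used here give no dose, time, sex or age, and the design text speaks of hepatocytes where the sample labels say liver.

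IL-1 alpha and IL-1 beta are cytokines that start inflammation. Both bind the receptor encoded by Il1r1, which signals only once it has recruited the accessory chain encoded by Il1rap. The system is held back by an antagonist that occupies the receptor (Il1rn) and by a decoy receptor without a signalling domain (Il1r2). IL-18 and IL-33 are relatives with receptors of their own. IL-33 signals through the product of Il1rl1, also called ST2, paired with the same accessory chain, and in skin this pathway is known for acting on mast cells and innate lymphoid cells.

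All values are TPM, a transcript level scaled for transcript length and library total that keeps no read depth. The mitochondrially encoded transcripts and their near-copy pseudogenes took 26.7% ± 1.51 (SD, n = 3) of the liver total with vehicle and 76.8% ± 7.6 with CCl4, so liver values are also given after leaving these genes out and rescaling the rest to the usual total. In skin they took 3.49% ± 1.17 and 2.70% ± 1.79. Hepatocyte markers were high in every liver library, with Alb between 40168 and 45635 TPM with vehicle and between 8884 and 21657 with CCl4. Cx3cr1 itself lay between 0 and 5.28 TPM in the 6 skin libraries, while keratinocyte markers summed to 2942 to 21264 and T, NK and innate lymphoid cell markers to 1118 to 7245. One skin library, CCl4 replicate 3, stood apart: its mean Pearson r with the other 5 skin libraries over 13767 genes was 0.738, against 0.782 to 0.821 for the others, and its macrophage markers summed to 309 TPM against 6882 to 25318. The skin libraries numbered 1 listed more genes above 0 (28870 with vehicle and 28357 with CCl4) than the other 4 (21328 to 23494), and were the highest of their group in Il1a, Il1b, Il1rn and Il18; the part of this in the levels was not tested.

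In liver, the transcripts of both IL-1 cytokines, of the receptor antagonist and of Il33 rose after CCl4, and those of the accessory chain Il1rap and of Il18 fell. Of the 9 genes, 7 passed the filter of at least 1 TPM in at least 3 of the 6 liver libraries, and 6 of these were called by limma at a Benjamini-Hochberg adjusted p under 0.05, 4 higher and 2 lower. Among all 10385 genes tested in liver, 61.4% were called, 10.3% higher and 51.1% lower, so a call alone sets no gene apart here. The groups did not overlap in 6 of the 7, against 70.2% of all genes tested (11.4% with CCl4 higher and 58.8% with CCl4 lower). The direction depended on the scaling for liver genes at large: with mitochondrial genes and copies left out, 67.8% of 12583 genes were called higher and 3.58% lower. Median-ratio scaling gave 1841 higher and 2720 lower, and quantile normalization 1778 and 2574, against 1073 and 5304 as deposited. The median log2 change of all liver genes was -0.59 as deposited and 0.90 after rescaling, and each gene is read against these medians. Il1a, Il1b and Il33 had every vehicle library under 1 TPM and passed the filter only through the CCl4 group, so their count is a description. With no filter all 3 were still called, at limma adjusted p values of 0.0103, 0.0103 and 0.0161. When liver and skin were fitted together, so that the liver genes shared the larger spread of the skin libraries, Il1a alone stayed under the threshold (limma adjusted p = 0.0205), and the others lay between 0.0505 (Il18) and 0.338 (Il33).

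**Figure D1:**
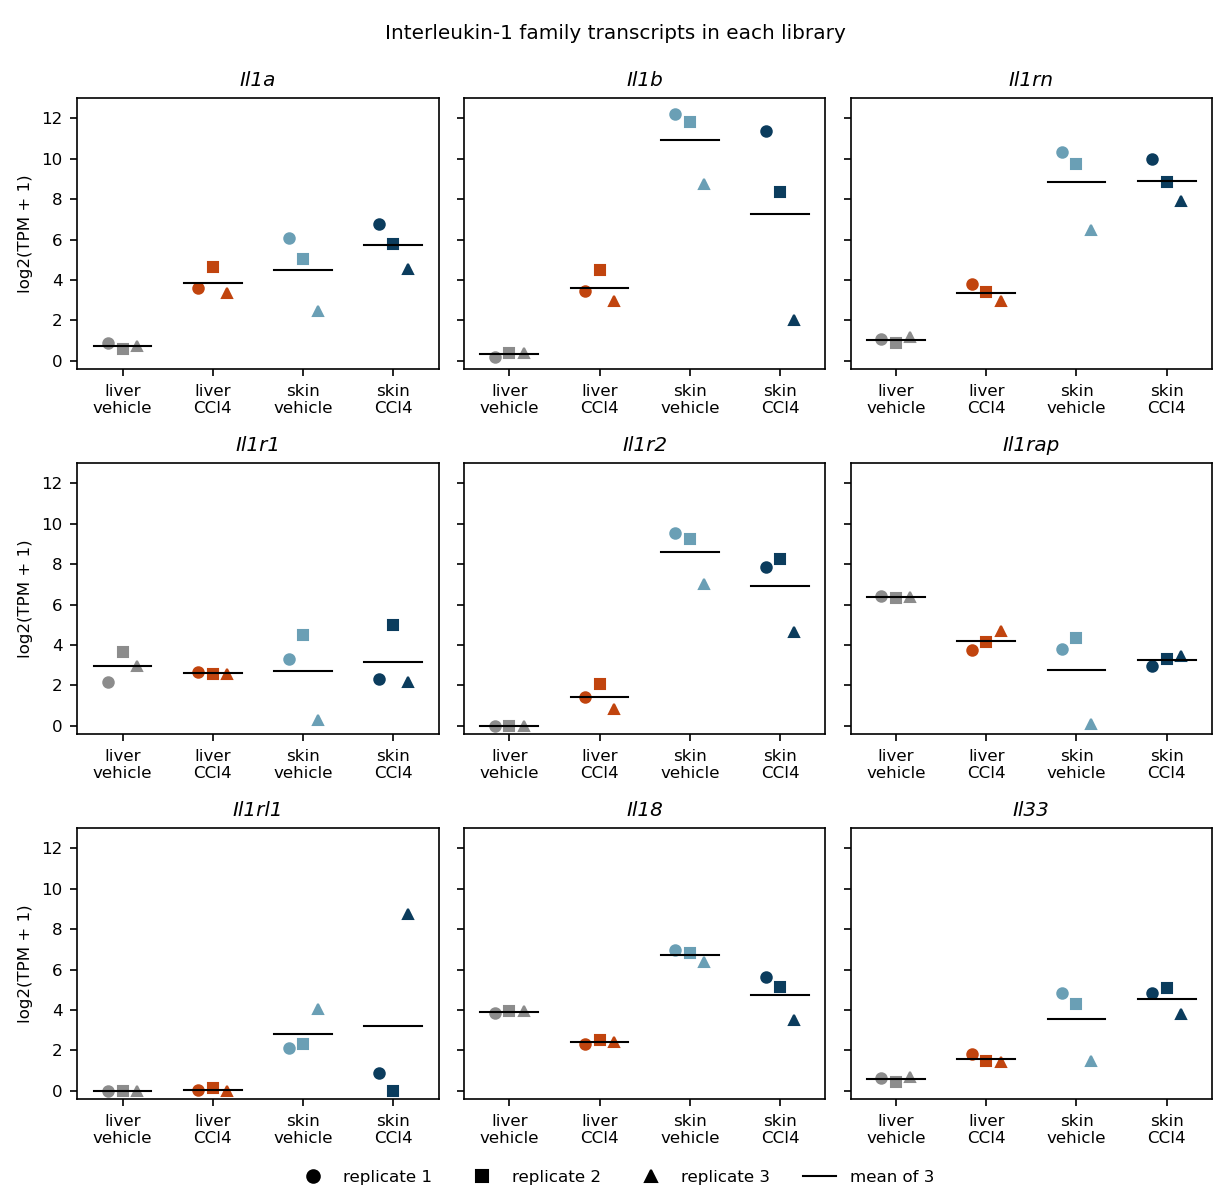
Level of each of the 9 genes in each library, as log2(TPM + 1) on the y axis, for liver and skin with vehicle or CCl4 (x axis). Symbols stand for replicates 1 to 3 and the bar for the mean of 3. In liver the CCl4 libraries of Il1a, Il1b, Il1rn and Il33 all lie above the vehicle libraries, and in skin the groups separate for Il18 alone.

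Il1b, which encodes the cytokine that caspase-1 cleaves into its active form, was near the floor of the table in vehicle liver, at 0.14, 0.33 and 0.30 TPM in replicates 1 to 3. With CCl4 it stood at 9.93, 21.4 and 6.72 TPM. Every CCl4 library was above every vehicle library. The log2 change was 3.30 ± 0.32 (SE), with a limma adjusted p of 4.09e-05. Il1a, whose product is active without that cleavage and is released from damaged cells, stood at 0.88, 0.48 and 0.65 TPM with vehicle against 11.2, 24.3 and 9.28 with CCl4. Its groups did not overlap either, and replicate 2 was the highest CCl4 library for both cytokines. The log2 change of Il1a was 3.14 ± 0.30, with a limma adjusted p of 3.98e-05. After rescaling without mitochondrial genes and copies both changes were larger, at 5.26 ± 0.52 for Il1b and 5.02 ± 0.47 for Il1a, where the median gene was at 0.90.

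Il33, an alarmin stored in the nuclei of barrier and stromal cells, stood at 0.57, 0.36 and 0.59 TPM with vehicle against 2.56, 1.81 and 1.71 with CCl4. The rise was smaller than that of the IL-1 cytokines but every CCl4 library was above every vehicle library. Its log2 change was 1.00 ± 0.18, with a limma adjusted p of 0.00105, and 2.56 ± 0.33 after rescaling. Il18 was the exception among the cytokines. It encodes a caspase-1 substrate that drives interferon-gamma production and is carried as a ready precursor by many resting cells. Vehicle livers held 13.6, 14.2 and 14.2 TPM and CCl4 livers 3.95, 4.68 and 4.26. The fall of 1.51 ± 0.21 on the log2 scale (limma adjusted p = 0.000261) became changes of -0.96 and -0.92 with median-ratio scaling and quantile normalization, where it was still called. After rescaling without mitochondrial genes and copies the level was 19.1 ± 0.14 TPM with vehicle and 19.7 ± 5.56 with CCl4. The log2 change was then 0.00 ± 0.22, where the median gene was at 0.90, so Il18 lay below the median under both scalings.

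Among the 2 genes that restrain IL-1, both were higher in every CCl4 liver. Il1rn, the antagonist, stood at 1.09, 0.86 and 1.24 TPM with vehicle against 13, 9.49 and 6.74 with CCl4. The rise was 2.34 ± 0.24 on the log2 scale, with a limma adjusted p of 4.93e-05, and 4.14 ± 0.41 after rescaling. Il1r2, the decoy receptor, was listed at 0 in all 3 vehicle livers and at 1.65, 3.26 and 0.78 TPM in the CCl4 livers. It failed the filter, and no fold is given against a group listed at 0. Its 2 groups did not overlap (two-sided exact permutation p = 0.1, the smallest that 3 against 3 allows), and limma without the filter gave an adjusted p of 0.0226. After rescaling it stood at 9.22, 16.5 and 2.45 TPM with CCl4 and passed the filter through that group alone, so its call there (limma adjusted p = 0.00245) is a description.

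Of the signalling receptors, the shared accessory chain Il1rap was the one that fell. It was the most abundant of the 9 transcripts in vehicle liver, at 84.9, 78.8 and 82.8 TPM, and stood at 12.7, 16.8 and 24.8 with CCl4. The log2 change was -2.17 ± 0.30 (limma adjusted p = 0.000269). The fall held under rescaling but was much smaller, at -0.52 ± 0.13 with a limma adjusted p of 0.00846, where all genes had a median of 0.90. Il1r1, the ligand-binding receptor, varied from 3.48 to 11.7 TPM among vehicle livers and lay between 4.84 and 5.42 with CCl4. Its groups overlapped and it was not called (log2 change -0.34 ± 0.32, limma adjusted p = 0.374). The sign of that value depended on the scaling: it was 0.19 with median-ratio scaling, 0.16 with quantile normalization and 1.23 after rescaling, where it was called higher at a limma adjusted p of 0.0280. It was also 0.03 without vehicle replicate 2. Il1rl1, the IL-33 receptor, was listed at 0 in all vehicle livers and at 0.02, 0.09 and 0 TPM with CCl4, and failed the filter.

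The order of the levels also differed between the liver groups. With vehicle, Il1rap was followed by Il18 and Il1r1, whose ranges did not overlap, and then by Il1rn, Il1a and Il33, neighbours whose ranges did. Il1b came next, above Il1r2 and Il1rl1 at 0. With CCl4, Il1rap (18.1 ± 6.17 TPM), Il1a (14.9 ± 8.2), Il1b (12.7 ± 7.71) and Il1rn (9.74 ± 3.13) were neighbours with overlapping ranges. Il1r1 at 5.08 ± 0.30 and Il18 at 4.30 ± 0.37 followed, each apart from its neighbours.

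**Figure D2:**
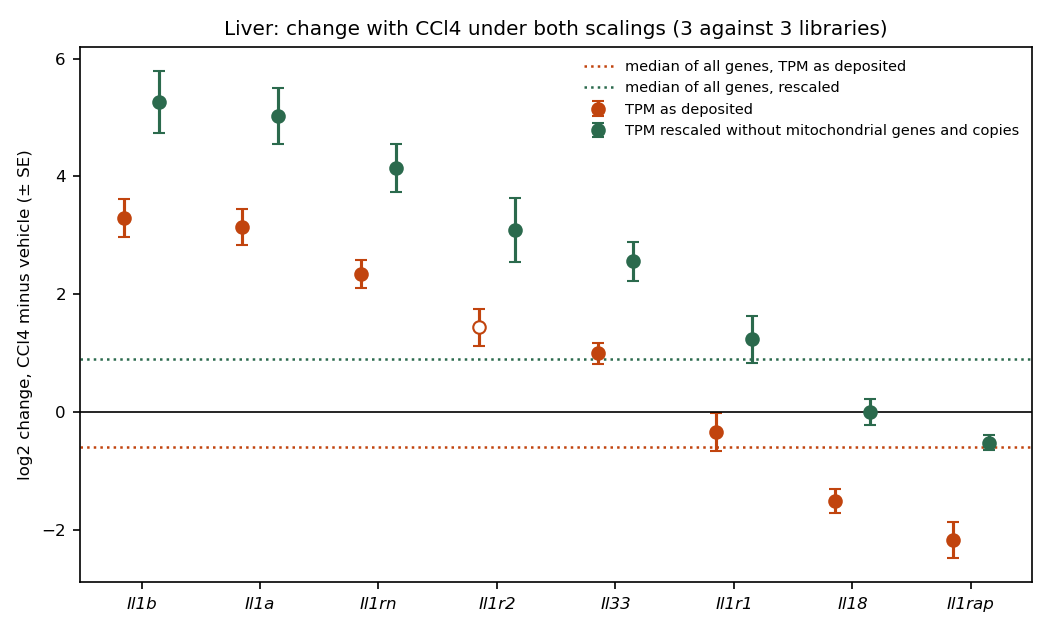
Log2 change with CCl4 in liver (y axis, CCl4 minus vehicle on the log2(TPM + 1) scale, bars ± SE, 3 against 3 libraries) for 8 of the genes on the x axis, with TPM as deposited and after rescaling without mitochondrial genes and copies. Dotted lines give the median of all genes under each scaling, and the open point (Il1r2) failed the filter. Il1a, Il1b, Il1rn and Il33 lie above the median line under both scalings, and Il1rap and Il18 lie below it under both.

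The upstream sequences of the 4 genes called higher in liver are shown because these genes rose together. RefSeq's table for GRCm38.p6, another build than that of the expression table, holds 14 starts for the 9 genes. The 250 bases before the start are given 5′ to 3′ on the gene's strand, at chr2:129309973-129310222 (minus strand) for Il1a, chr2:129371140-129371389 (minus) for Il1b, chr2:24336610-24336859 (plus) for the first of 3 Il1rn starts and chr19:29945540-29945789 (plus) for the second of 2 Il33 starts. For genes with several starts the window with the most matches was taken. Capitals mark matches, on either strand, of 4 motifs: the NF-kB consensus, AP-1 (TGANTCA), C/EBP (TTGCNNAA) and the TATA box (TATAAA). No match overlapped another.
Il1a: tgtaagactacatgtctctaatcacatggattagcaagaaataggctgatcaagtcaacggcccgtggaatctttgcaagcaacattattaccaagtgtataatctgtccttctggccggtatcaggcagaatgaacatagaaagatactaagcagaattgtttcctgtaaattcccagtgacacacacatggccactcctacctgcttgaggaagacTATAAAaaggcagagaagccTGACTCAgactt
Il1b: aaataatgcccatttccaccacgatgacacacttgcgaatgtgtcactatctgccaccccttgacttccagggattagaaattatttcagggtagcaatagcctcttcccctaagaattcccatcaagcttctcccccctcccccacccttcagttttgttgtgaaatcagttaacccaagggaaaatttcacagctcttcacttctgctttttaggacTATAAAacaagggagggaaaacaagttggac
Il1rn: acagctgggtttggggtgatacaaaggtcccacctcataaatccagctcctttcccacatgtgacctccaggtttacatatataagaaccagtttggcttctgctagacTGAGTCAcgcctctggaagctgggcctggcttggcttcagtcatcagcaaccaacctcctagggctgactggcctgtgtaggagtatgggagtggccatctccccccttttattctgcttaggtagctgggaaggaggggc
Il33: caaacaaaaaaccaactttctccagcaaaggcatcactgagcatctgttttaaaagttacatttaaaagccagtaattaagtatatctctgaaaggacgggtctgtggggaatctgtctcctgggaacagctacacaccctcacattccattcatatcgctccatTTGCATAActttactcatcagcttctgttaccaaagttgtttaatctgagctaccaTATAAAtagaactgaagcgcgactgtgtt

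A TATA box stood 32 to 27 bases before the start of Il1a, 31 to 26 before that of Il1b and 29 to 24 before that of Il33. An AP-1 match, the motif of Fos and Jun dimers, ended 6 bases before the Il1a start and lay 141 to 135 bases before that of Il1rn. A C/EBP match lay 85 to 78 bases before the Il33 start. Over the 14 windows of all 9 genes, 35.7% held the TATA box letters against 12.4% of the 32851 windows in the table. These were 5 windows of 4 genes, both Il33 windows included. The Il18 match lay on the opposite strand, 175 to 170 bases before the start, and that of the first Il33 start 203 to 198 before it. The shares were 21.4% and 9.56% for C/EBP, 14.3% and 6.75% for AP-1, and 7.14% and 7.25% for NF-kB. The single NF-kB match belonged to the second start of Il1r1, which was not called as deposited and was called higher after rescaling. A match is a string of letters in a window and not a site in use.

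Of 20 listed genes that IL-1 is known to induce, 10 passed the filter in liver, 6 rose and none fell, with a median log2 change of 1.37 against -0.59 for all genes tested. A listed gene that is near 0 with vehicle passes only if CCl4 raises it, so such counts lean towards higher values. Cxcl2, a neutrophil chemokine, rose by 3.54 ± 0.21 (limma adjusted p = 1.09e-06). Ccl2, a monocyte chemokine, rose by 3.36 ± 0.20 (limma adjusted p = 1.09e-06). The adhesion molecule Vcam1 rose by 2.46 and the NF-kB inhibitor Tnfaip3 by 1.64 (limma adjusted p = 3.76e-05 and 0.000138). The other 2 called, Icam1 and Nfkbiz, rose by 1.52 and 1.23. Cxcl2, Ccl2 and Tnfaip3 were under 1 TPM in every vehicle liver and passed only through the CCl4 group, so their calls are descriptions. With no filter their limma adjusted p values were 0.00269, 0.00215 and 0.0108. After rescaling all 12 that passed were called higher, with a median of 2.78 against 0.90 for all genes. Zc3h12a and Mmp9, which passed there and not as deposited, also did so through the CCl4 group alone. Among all genes tested, 10.3% were called higher and 51.1% lower as deposited, and 67.8% higher and 3.58% lower after rescaling.

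The signalling chain below the receptor had a median near that of all genes. Of 21 listed genes 18 passed the filter, 6 were called lower and none higher, and the median was -0.51 against -0.59 for all genes. The lowest p values belonged to Peli2, a ubiquitin ligase (-0.95), Ecsit, a Traf6 adaptor (-1.39), Tab2, which couples Traf6 to its kinase (-1.06), and the IkB kinase subunit Chuk (-1.09), with limma adjusted p values of 0.00115, 0.00156, 0.00281 and 0.0107. These calls depended on the scaling: after rescaling none of 21 was lower and 19 were higher, at a median of 0.99 against 0.90, with Tab2 and Chuk among the higher ones and Peli2 (0.10) and Ecsit (0.14) not called. Irak3, also among the higher ones, passed there through the CCl4 group alone. The shares among all genes tested were 10.3% higher and 51.1% lower as deposited, and 67.8% higher and 3.58% lower after rescaling. Inflammasome and processing genes gave 2 higher and 4 lower among the 9 of 21 that passed. Casp1, the protease that matures IL-1 beta and IL-18, stood at 0.27, 0.74 and 0.27 TPM with vehicle against 2.90, 5.06 and 1.26 with CCl4, a rise of 1.42 ± 0.31 (limma adjusted p = 0.00250). Casp4, the sensor of intracellular lipopolysaccharide, rose by 1.56 ± 0.31 (limma adjusted p = 0.00164). Casp1 and Casp4 were under 1 TPM in every vehicle liver and passed only through the CCl4 group, so these calls are descriptions. With no filter their limma adjusted p values were 0.0402 and 0.0325. Gsdmd, whose cleaved form opens the pore through which IL-1 leaves, fell by 1.5, and Ninj1, which ruptures the membrane, fell by 1.36 (limma adjusted p = 0.000668 and 0.00225). The other 2 called lower were Capn1 at -0.79 and Nek7 at -0.54. After rescaling none of 13 was lower and 9 were higher, Casp1 at 3.08 and Casp4 at 3.25, while Gsdmd was at 0.06 and Ninj1 at 0.31. Nlrp3, P2rx7 and Pycard, among the higher ones, also passed through the CCl4 group alone, so this count is a description. Of 12 other family genes 2 passed: Sigirr, an inhibitory receptor, fell by 1.15 (limma adjusted p = 0.00432), and Il18bp, which neutralises IL-18, was at 0.01 (limma adjusted p = 0.984). After rescaling, Il18bp was called higher at 1.60 and Sigirr was not called at 0.31.

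**Figure D3:**
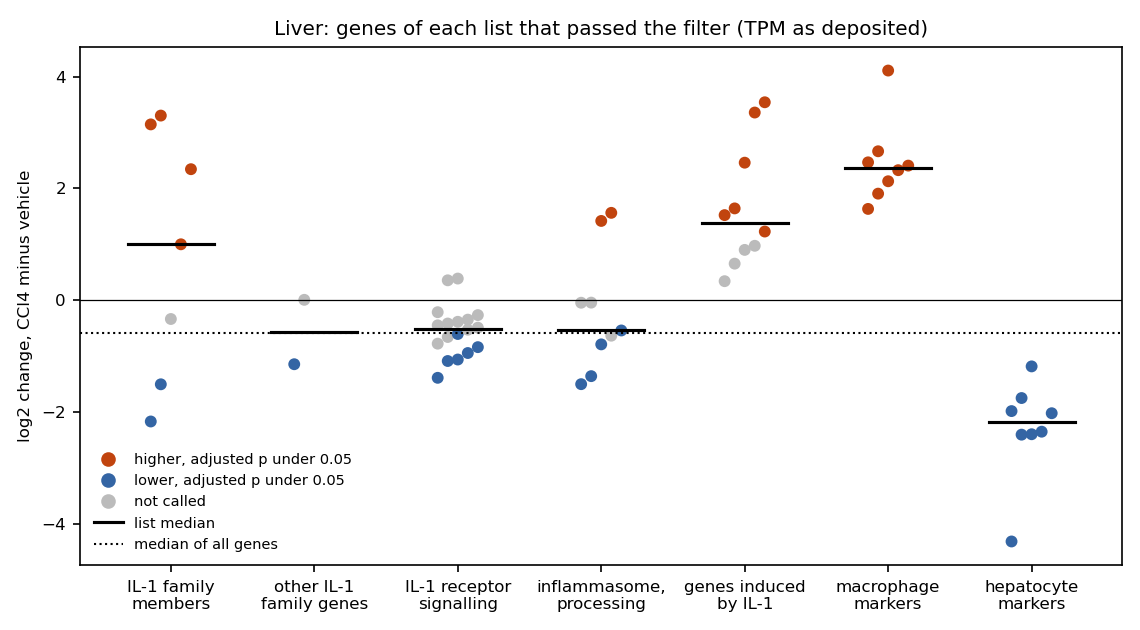
Log2 change in liver (y axis, CCl4 minus vehicle, TPM as deposited) of each gene that passed the filter, by list (x axis): the 9 genes studied, 4 pathway lists, macrophage and hepatocyte markers. Bars give list medians and the dotted line the median of all genes, -0.59. The genes that IL-1 induces have a median of 1.37 and the signalling list lies near the dotted line. Of the induced genes, Cxcl2, Ccl2 and Tnfaip3 passed the filter only through the CCl4 group.

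Cell type markers moved with these transcripts in liver, where 10.3% of all genes tested were called higher and 51.1% lower. Macrophage and monocyte markers summed to 23.2 to 49.8 TPM with vehicle and 150.4 to 549 with CCl4, and all 8 of the 12 that passed the filter were called higher (Lyz2 4.11, C1qb 2.46 and C1qa 2.13 on the log2 scale). Kupffer cell markers summed to 17.2 to 43.8 and 70.1 to 182 TPM, with 6 of 6 called higher (Cd5l, Clec4f and Vsig4 highest in level). Neutrophil markers summed to 0.12 to 0.96 and 33.2 to 356 TPM. Of these, 4 of 10 passed and were called higher (S100a9, S100a8 and Retnlg highest in level). All 4 were under 1 TPM in every vehicle liver and passed only through the CCl4 group, so their count is a description. Ly6g, Ngp, Camp and Mmp8 were at 0 in every vehicle liver and reached at most 0.08, 1.66, 0.26 and 1.35 TPM with CCl4. Endothelial markers (Clec4g, Egfl7, Kdr) were called higher in 8 of 8, and fibroblast and stellate cell markers (Dcn, Col3a1, Reln) in the 7 of 10 that passed. Of these, Tie1, Col1a1, Col1a2, Col3a1, Lum and Lrat also passed only through the CCl4 group, with every vehicle liver under 1 TPM. Hepatocyte markers (Alb, Apoa1, Ttr) fell in 8 of 8 as deposited, and after rescaling 4 fell (Apoa1, Serpina1a, Cyp2e1 and Tat) and 1 rose (Apob). The smaller lists gave 2 of 10 mast cell markers passing and higher (Kit and Hdc), and 3 of 10 keratinocyte markers passing with 2 lower (Perp and Dsp). Hdc was under 1 TPM in every vehicle liver and passed only through the CCl4 group, so its call is a description. The other 8 mast cell markers were at 0 in every vehicle liver and reached at most 0.31 TPM (Cpa3) with CCl4. None of the dendritic or lymphoid markers passed. Among the CCl4 livers, replicate 2 had the highest macrophage, neutrophil, endothelial, and fibroblast and stellate cell sums and the highest Il1a, Il1b and Il1r2. Replicate 1 had the highest Kupffer cell sum and the highest Il1rn and Il33. Replicate 3 had the lowest of all these values. In bulk RNA, a change in the number of cells of a type and a change in RNA per cell cannot be told apart, and the part of these markers in the changes was not tested.

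In skin, none of the 9 genes was called. All 9 passed the filter, and limma called 0 of 13767 genes, 0%, with 288 (2.09%) at an unadjusted p under 0.05 and 727 (5.28%) whose groups did not overlap, 2.56% with CCl4 higher and 2.72% with CCl4 lower. One of the 9, Il18, was below 0.05 unadjusted and was the one whose groups did not overlap. Limma adjusted p values for all 9 were 1.00, so the skin values below are levels and not changes.

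Il1b was the most abundant of the 9 in skin cells by group mean, and its level ranged widely inside both groups. With vehicle it stood at 4718, 3653 and 431 TPM and with CCl4 at 2603, 330.5 and 3.05. CCl4 replicate 3 held almost none, and the groups overlapped. The log2 change was -3.69 ± 1.99 (limma adjusted p = 1.00), and -1.07 ± 1.2 without CCl4 replicate 3. Il1rn followed in abundance, at 1277, 846 and 86.9 TPM with vehicle and 1016, 453 and 242 with CCl4. Its lowest library was vehicle replicate 3 and not CCl4 replicate 3. The log2 change was 0.08 ± 0.99, and -1.11 ± 0.68 without vehicle replicate 3.

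The decoy receptor Il1r2 was a major transcript of these cells, unlike in liver. It stood at 736, 603 and 129 TPM with vehicle against 229, 306 and 24.2 with CCl4, with a log2 change of -1.67 ± 1.03 and of -0.54 ± 0.81 without CCl4 replicate 3. It exceeded the signalling receptor Il1r1 in all 6 libraries, by 6.79 to 561 times in TPM. Il1r1 stood at 9.07, 21.6 and 0.23 TPM with vehicle and 3.98, 30.5 and 3.57 with CCl4. Il1rap stood at 13.1, 19.2 and 0.08 TPM and, with CCl4, at 6.93, 8.90 and 9.85. The log2 changes of 0.45 ± 1.18 and 0.49 ± 1.06 became -0.75 and -0.83 without vehicle replicate 3. Both receptors were nearly missing from vehicle replicate 3, the library that also had the lowest Il1a, Il1rn and Il33.

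Il18 was the gene whose skin groups separated. Vehicle libraries held 126, 111.5 and 81.1 TPM and CCl4 libraries 49.1, 34.8 and 10.2. Every CCl4 library was below every vehicle library, with CCl4 replicate 3 the lowest. The log2 change was -1.95 ± 0.69 (limma p = 0.0189, adjusted p = 1.00, two-sided exact permutation p = 0.1), and -1.32 ± 0.59 without CCl4 replicate 3. It is 1 gene of 9 where 5.28% of all genes separated, and it did not pass the correction. Il1a stood at 66.3, 31.8 and 4.47 TPM with vehicle against 109.8, 54.7 and 22.4 with CCl4, a log2 change of 1.19 ± 0.99 that was 0.16 without vehicle replicate 3. Il33 stood at 27.8, 18.6 and 1.77 TPM and at 27.8, 32.7 and 12.8, a log2 change of 1.03 ± 0.93 that was 0.00 without vehicle replicate 3. In both the groups overlapped.

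Il1rl1, the IL-33 receptor, was set by a single library. It stood at 3.41, 4.03 and 15.5 TPM with vehicle against 0.87, 0.01 and 423 with CCl4. The log2 change of 0.38 ± 1.95 became -2.38 ± 0.78 without CCl4 replicate 3, still at an adjusted p of 1.00. That library also held the IL-36 genes, named here after their values were seen, at levels found in no other skin library. Il36g stood at 403 TPM against 2.52 to 17.2 in the others, and Il36rn, the IL-36 antagonist, at 404 against 3.49 to 20.9. Il36b stood at 125 against 0.29 to 1.59. In the same library Krtdap, a keratinocyte differentiation gene, stood at 19821 TPM against 1048 to 11735. The keratinocyte list did not move as one there: Krtdap and Perp were at their highest of the 6 skin libraries, and the keratins Krt5, Krt14, Krt1, Krt10 and Krt15 were each at their lowest (Krt14 at 264 TPM against 348 to 1133). Lyz2, a macrophage gene, stood there at 208 against 5256 to 15754, and the mast cell protease Cpa3 and the dendritic cell lectin Cd209a were listed at 0. Most other genes of the mast cell and the Langerhans and dendritic cell lists were also at their lowest there. Kit of the first list (12.9 TPM) and Epcam of the second (113 TPM) were at their highest of the 6 skin libraries. S100a8 stood at 291 TPM in that library against 2.54 to 42.9, and S100a9 at 288 against 2.27 to 41.8. The neutrophil list did not move as one either. Mmp8 (7.61 TPM) and Camp (1.12) were also at their highest there. Csf3r was at its lowest of the 6 skin libraries, 0.03 TPM, and Ly6g, Ngp and Ltf were listed at 0. Whether a different mix of cells accounts for these levels was not tested.

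**Figure D4:**
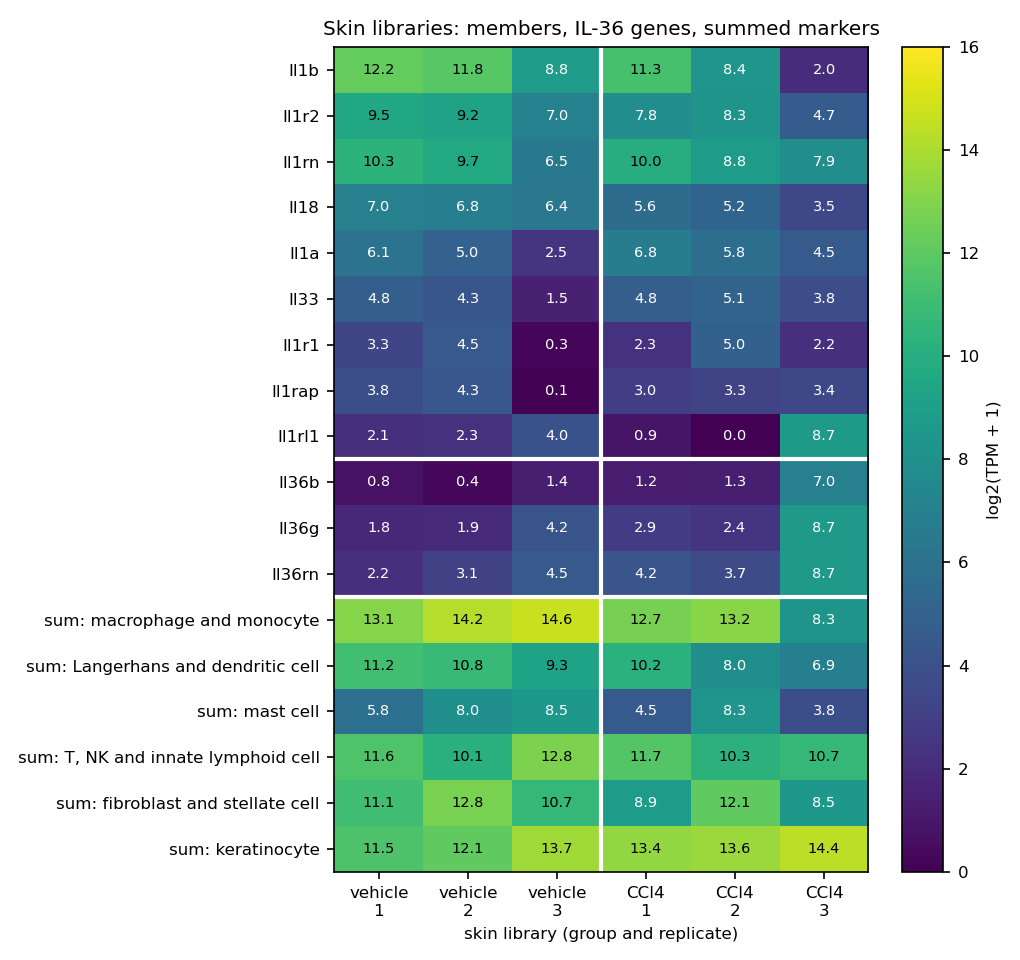
Levels in the 6 skin libraries (columns, vehicle 1 to 3 and CCl4 1 to 3) as log2(TPM + 1), by colour and printed value, for the 9 genes, 3 IL-36 genes and the summed TPM of 6 marker lists (rows). CCl4 replicate 3 has the lowest Il1b (2.0) and macrophage sum (8.3) and the highest Il1rl1 (8.7), IL-36 genes and keratinocyte sum (14.4), a sum that is mostly Krtdap there while 5 keratins of the list are at their lowest.

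The skin marker lists had no called gene in any of the 10. Macrophage and monocyte markers (Lyz2, C1qb, C1qc) had a median log2 change of -2.77 over 11 tested, and summed to 8849 to 25318 TPM with vehicle and 309 to 9181 with CCl4. The medians were -2.52 for Kupffer cell markers (4 tested), -2.10 for Langerhans and dendritic cells (7), -2.07 for mast cells (6), -1.53 for fibroblasts (8) and -0.59 for lymphoid cells (9). They were 0.58 for neutrophil (4), 0.14 for keratinocyte (10), 0.04 for endothelial (4) and 0.66 for hepatocyte markers (2), against -0.05 for all genes. Langerhans and dendritic cell markers summed to 619 to 2282 TPM with vehicle and 118 to 1215 with CCl4, and mast cell markers to 56.3 to 370.2 and 13.2 to 322. Neither list separated the groups, and their part in the levels of Il1b, Il1r2 and Il18 was not tested. The pathway lists had no called gene either: the medians were 0.49 for genes induced by IL-1 (19 tested), -0.11 for receptor signalling (21), -0.72 for inflammasome and processing genes (16) and 0.84 for other family genes (10).

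A ratio of TPM between genes of one library does not depend on that library's total, so the balance of the system was also followed inside libraries. On the log2(TPM + 1) scale, used for the tests, a dependence stays for low genes. In skin, the antagonist Il1rn was a minor transcript beside Il1b with vehicle, at 0.271, 0.232 and 0.202 times its TPM. With CCl4 it was at 0.390, 1.37 and 79.4 times. The 3 CCl4 libraries lay above the 3 vehicle libraries, which were close to each other although their Il1b levels ranged from 431 to 4718 TPM. The difference in log2(TPM + 1) averaged -2.10 with vehicle and 1.67 with CCl4, a shift of 3.77 (two-sided exact permutation p = 0.1, adjusted p = 0.171 over 12 pairs and tissues). Il1a against Il1b had the same order, at 0.0141, 0.00869 and 0.0104 times with vehicle and 0.0422, 0.166 and 7.35 times with CCl4, a shift of 4.88 (exact permutation p = 0.1, adjusted p = 0.171). Both share Il1b as the denominator, so they are not separate evidence, and both ratios were highest in CCl4 replicate 3. The other CCl4 libraries, at 0.390 and 1.37 times for Il1rn, were still above every vehicle library.

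In liver the antagonist was lower against Il1b in every CCl4 library. Il1rn stood at 7.79, 2.61 and 4.13 times Il1b in TPM with vehicle and at 1.31, 0.444 and 1.00 times with CCl4. The groups did not overlap, with Il1b under 1 TPM in the vehicle livers, and the shift was -0.96 in log2(TPM + 1) (exact permutation p = 0.1, adjusted p = 0.171). Il1a stood at 6.29, 1.45 and 2.17 times Il1b with vehicle and at 1.12, 1.14 and 1.38 times with CCl4, so these ratios did not overlap. On the log2(TPM + 1) scale the groups overlapped, with a shift of -0.16 (exact permutation p = 0.7) that was -0.85 with a pseudocount of 0.1 and 0.08 with one of 5. Il18 stood at 43.1 to 96.9 times Il1b with vehicle and at 0.219 to 0.634 times with CCl4, a shift of -4.81. The accessory chain went from 6.74 to 24.4 times Il1r1 with vehicle to 2.35 to 5.0 times with CCl4, a shift of -1.83. The shift of the decoy against Il1r1 was 1.78 and that of Il33 against Il1rl1 0.95, in pairs with a gene listed at 0. The second became 2.33 when the library total was rescaled without mitochondrial genes and copies. In all, 7 of the 12 comparisons had groups that did not overlap, 5 of 6 in liver and 2 of 6 in skin, all at the smallest exact permutation p of 0.1, and none passed the correction. With a pseudocount of 5 the count was 5, and the liver shifts of Il1rn against Il1b and of Il1r2 against Il1r1 were -0.40 and 0.69. The share of other gene pairs that separate was not computed, so nothing is read from the count. The other 4 skin pairs overlapped, Il1r2 against Il1r1 with a shift of -2.13 (exact permutation p = 0.2), Il18 against Il1b with 1.73, Il33 against Il1rl1 with 0.66 and Il1rap against Il1r1 with 0.04.

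**Figure D5:**
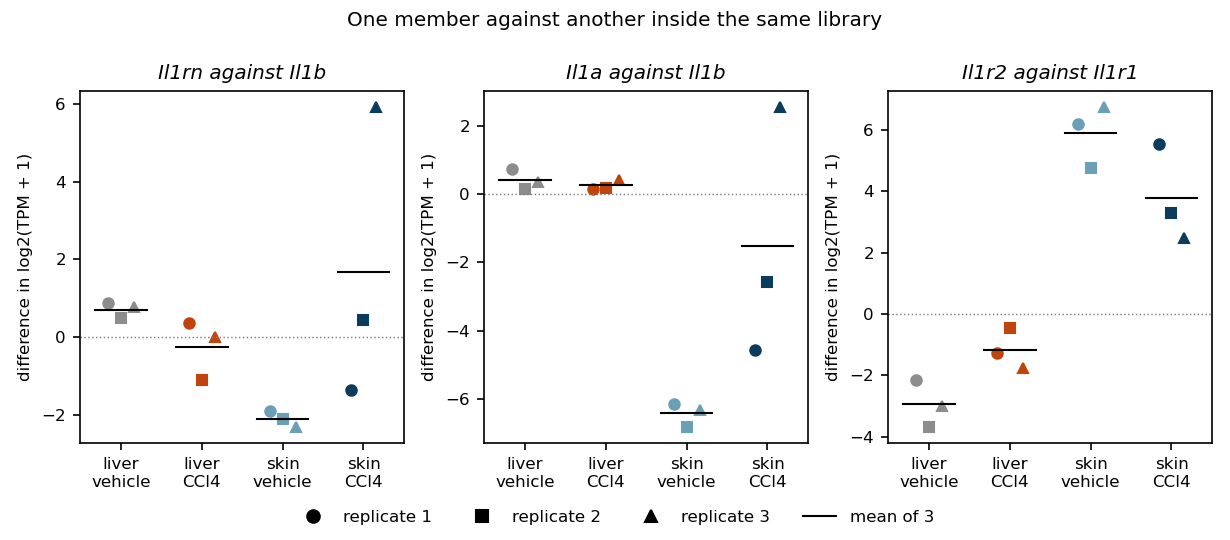
Difference in log2(TPM + 1) between 2 genes of the same library (y axis), by group (x axis), for Il1rn against Il1b, Il1a against Il1b and Il1r2 against Il1r1. Symbols stand for replicates and bars for the mean of 3. For Il1rn against Il1b the skin means are -2.10 with vehicle and 1.67 with CCl4, and the liver means 0.71 and -0.24.

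Whether the effect of CCl4 differed between liver and skin cells was tested as skin change minus liver change in one limma model over all 12 libraries, in which tissue, assay and strain cannot be told apart. Of 9255 genes tested, 20 (0.216%) were called, 6 higher (0.0648%) and 14 lower (0.151%), and 1872 (20.2%) had an unadjusted p under 0.05. None of the 7 genes tested was called. Il1b had the largest value, -6.99 ± 2.40 (limma adjusted p = 0.15), from a rise of 3.30 in liver and the -3.69 of skin. It passed at an adjusted p of 0.0499 after rescaling (-8.96) and at 0.0401 without skin CCl4 replicate 1 (-9.04), and it was -4.37 (adjusted p = 0.141) without skin CCl4 replicate 3, the library that stood apart. Il1rap had 2.66 (adjusted p = 0.225), Il1rn -2.26 (0.285) and Il1a -1.95 (0.343), and Il1rn passed at 0.0358 (-3.45) without skin vehicle replicate 3. Without that library Il1rap was at 1.34 and Il1a at -2.98, and Il1a was at -1.17 without skin vehicle replicate 1. Il1r1 (0.79), Il18 (-0.45) and Il33 (0.03) lay nearer to 0, and the median of all genes was 0.54. Il1r2, which failed the liver filter, was at -3.12 with no filter (limma adjusted p = 0.292). After rescaling, where it passed the liver filter through the CCl4 group alone, it was called at -4.77 (limma adjusted p = 0.0494), and the median of all genes was -0.98.

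As a description of likeness, each gene was set against 10021 genes by Pearson r of log2(TPM + 1) over the 12 libraries. These values mix the gap between tissues with the effect of CCl4, and the libraries share their composition. Il1b was most like Gpr65, a proton-sensing receptor (r = 0.99), and Bcl2a1b, a survival gene (0.99). Il1a was most like Trp53i11 and Ets1 (both 0.98), Il1rn like Tes and Sept11 (both 0.99) and Il1r2 like Oxct1 (1.00) and Agpat4 (0.99). Il18 was most like Ikbkb and Casp6 (both 0.98), and Il33 like Mpzl1 (0.98) and Tnip1 (0.97). Il1rl1 was nearest to Snai3 (0.99) and Serpinb1b (0.98), values that one library can set. Il1rap was nearest to Tmem63b (0.97) and to Egfr (0.96), whose level in liver was 64.8 TPM with vehicle and 16.1 with CCl4. Il1r1 had the loosest partners, Acvr1 (0.90) and Nus1 (0.88).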

How the data were processed

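The authors deposited one table of TPM for 57180 genes and 12 libraries, made with fastp, HISAT2, StringTie and RSEM on GRCm39, per the submitters' processing notes, which name no versions or roles. TPM keeps no depth, so no counting intervals are given. The labels give a single poly(A) protocol for all libraries, which does not describe smart-seq. The sources used here do not say how cells were sorted or whether tamoxifen was given.

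Symbols came from the supplied name tables (51884 IDs matched). Values were analysed as log2(TPM + 1), which understates changes of low genes, with limma 3.58.1 (lmFit, eBayes with trend) in R 4.3.3, two-sided, Benjamini-Hochberg adjusted over all genes with at least 1 TPM in at least 3 of 6 libraries of a tissue, liver and skin apart. Errors after ± are SE for log2 changes and SD for levels, with 3 libraries a group. The design text calls replicates biological, and p-values measure the spread between these libraries. The rescaled alternative left out 37 mitochondrial genes and 7 near copies (at least 90% identity over 80% of the length, mean TPM at least 1). The scripts were tested on simulated data.

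The 9 genes, 4 pathway lists and 10 marker lists were chosen with earlier results of these data known. Beyond the 9 genes, the text names up to 4 called genes with the lowest p of each pathway list, the 3 marker genes highest in level, and the 2 genes most alike in r among those with a mean TPM of at least 5 in a group. The remaining names were chosen after their values were seen. Alternatives were pseudocounts of 0.1 and 5, no filter, a filter at a TPM of 5, 3 scalings, a replicate block, one fit over 12 libraries, and leaving out each library.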

Additional observations from a re-analysis of the deposited data

How the results depend on the processing

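In liver, the 6 called genes kept their calls and directions with pseudocounts of 0.1 and 5, median-ratio scaling, quantile normalization and every left-out library. Without mitochondrial genes and copies, Il18 lost its call (0.00302) and Il1r1 and Il1r2 gained one. In one fit over 12 libraries, with the spread of the skin libraries shared, 1 of the 6, Il1a, was called. All liver calls numbered 4084 with a filter at TPM 5, where fewer genes were tested, and 1736 in one fit over 12 libraries, where 1 skin gene was called. Leaving out libraries gave 4874 to 7607. Il1r1 turned to 0.19 with median-ratio scaling, 0.16 with quantile normalization and 1.23 without mitochondrial genes and copies, and ranged from -0.72 to 0.027 over left-out libraries.

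In skin no gene was called with any library left out. Il1rl1 was -0.78 with pseudocount 0.1 and Il1rn -0.13 with quantile normalization. Over left-out libraries the ranges that crossed 0 were -1.11 to 0.82 for Il1rn, -0.75 to 1.35 for Il1r1, -0.83 to 1.28 for Il1rap, -2.38 to 1.98 for Il1rl1 and -0.00224 to 1.69 for Il33.

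The difference between tissues depended most on the processing, and the cause was not tested. Calls numbered 176 with pseudocount 0.1, 66 with no filter, 11 with a filter at TPM 5, 206 with median-ratio scaling, 76 with quantile normalization and 765 without mitochondrial genes and copies, where 2 of the genes studied, Il1b and Il1r2, were called. They ranged from 4 to 419 over left-out libraries, with 419 without skin vehicle replicate 3, 322 without skin CCl4 replicate 1 and 233 without liver CCl4 replicate 3, and 0 to 1 of the genes studied. Il33 was -0.61 with pseudocount 0.1, -0.50 with median-ratio scaling, -0.084 with quantile normalization and -1.54 without mitochondrial genes and copies, and Il1r1 was -0.78 there. Over left-out libraries Il33 ranged from -1.0 to 0.69, Il1r1 from -0.42 to 1.68 and Il18 from -0.89 to 0.19.

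With the replicate number as a block, 6493 liver genes and 0 skin genes were called, and for the difference between tissues 345 genes, of which 1 of the genes studied, Il1b (-6.99, limma adjusted p = 0.0278). The labels do not say that the numbers pair the libraries, and for some libraries the number in the library name differs from that in the title. Deviations of same-numbered libraries correlated at -0.04, 0.08 and 0.07 in liver and 0.59, 0.09 and 0.35 in skin. Differently numbered libraries correlated at -0.11 to 0.08 in liver and -0.51 to 0.16 in skin. The values for skin replicates 1 and 3 were above every differently numbered skin value, so pairing in skin stays unsettled. The numbers were not taken as pairs because the labels do not give a pairing. Low levels limit liver Il1a, Il1b and Il33, whose vehicle values lay under 1 TPM with depth unknown.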
